A study of Mus musculus with 32 samples.

Results

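The oxysterol-binding protein family was measured in sorted mouse B cell populations through 10 of its genes, Osbp, Osbpl1a, Osbpl2, Osbpl3, Osbpl5, Osbpl7, Osbpl8, Osbpl9, Osbpl10 and Osbpl11, of 53465 genes in the count table. They were taken by gene name, and the family was chosen because Osbpl3 was far lower in plasma cells with activated PIK3CD. Values from that contrast are therefore given as a description without a test. The 2 further family genes in the table, Osbp2 and Osbpl6, had 2 and 12 counts over all 32 libraries.

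Proteins of this family carry a lipid-binding domain that takes up sterols, oxysterols, phosphatidylserine or the phosphoinositide PI4P and moves them between membranes. Many of them sit at contacts between the endoplasmic reticulum and another membrane, held there by the endoplasmic reticulum proteins VAPA and VAPB. There PI4P, made on the other membrane, is commonly exchanged for the lipid that is delivered. In the spleen, oxysterols also guide B cells through the receptor GPR183, whose loss from the cell surface accompanies entry into the germinal centre.

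Each population came from C57BL/6 mice of 12 weeks whose spleens were taken 14 days after intraperitoneal NP-CGG in alum, a hapten on a carrier protein that raises germinal centres. Plasma cells, light zone and dark zone germinal centre B cells, and naive B cells were sorted, each from mice labelled AID-cre aPIK3CD and mice labelled AID-cre WT, with 4 libraries a group. AID-cre was thus shared by the aPIK3CD and the WT groups, and the series describes aPIK3CD as activated PIK3CD signalling. This cre acts in B cells after their activation, and the share of cells that had recombined was not analysed here.

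Each library was made from 500 sorted cells. Total gene counts were 473149 to 2820830 in 31 libraries, while replicate 3 of the WT dark zone held 25797. The main tests of members that hold this library were also computed without it. Partner lists, family shares, group means and correlations were computed only with it. In the 4 libraries titled aPIK3CD replicate 1 the genotype field reads WT; they were grouped by title. The plasma cell marker followed the labels. The plasma cell gene Sdc1 averaged 772 ± 71.1 and 582 ± 43.0 CPM in aPIK3CD and WT plasma cells (SD, n = 4 each), against 23.5 ± 7.81 and 18.6 ± 12.1 CPM in aPIK3CD and WT naive cells. In the same order, 6 germinal centre markers summed to 2382 and 2197 CPM in dark zone cells, and 56.0 and 65.3 CPM in naive cells. But 5 light zone markers summed to 1693 and 1862 CPM in plasma cells, above 1651 and 1581 CPM in light zone cells. Natural killer markers summed to 202 and 208 CPM in naive cells, and T cell markers to 491 and 396 CPM in light zone cells. Levels are CPM, counts scaled to a common library size, on totals adjusted over all 32 libraries, and in such bulk samples fewer cells of a type and less RNA per cell cannot be told apart. Nothing in the labels says that libraries of a group came from separate mice, so p-values measure the spread between these libraries.

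Levels of different genes were compared per kilobase of exon. On this scale Osbpl9, which moves lipid between the endoplasmic reticulum and the Golgi, made up the largest mean share in 7 of the 8 groups, from 41.3 ± 2.98% of the family in aPIK3CD dark zone cells to 30.4 ± 2.96% in aPIK3CD plasma cells (SD, n = 4), and it held 25.5 ± 5.91% in WT plasma cells. Osbp, the founding member, which delivers cholesterol to the Golgi against PI4P, held the largest mean share in the remaining group, WT plasma cells, with 30.9 ± 5.69%. Osbpl2, a short member that brings cholesterol to the plasma membrane, held 29.6 ± 2.997% in aPIK3CD plasma cells and 18.5 ± 4.91% in WT plasma cells, and 10.6 ± 2.70% and 10.3 ± 3.24% in aPIK3CD and WT dark zone cells. In those dark zone cells Osbpl8 held a larger mean share than Osbpl2, 14.8 ± 1.81% in aPIK3CD and 13.3 ± 2.79% in WT. Osbpl3 held 0.721 ± 0.0793% and 7.48 ± 2.24% in aPIK3CD and WT plasma cells.

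**Figure D1:**
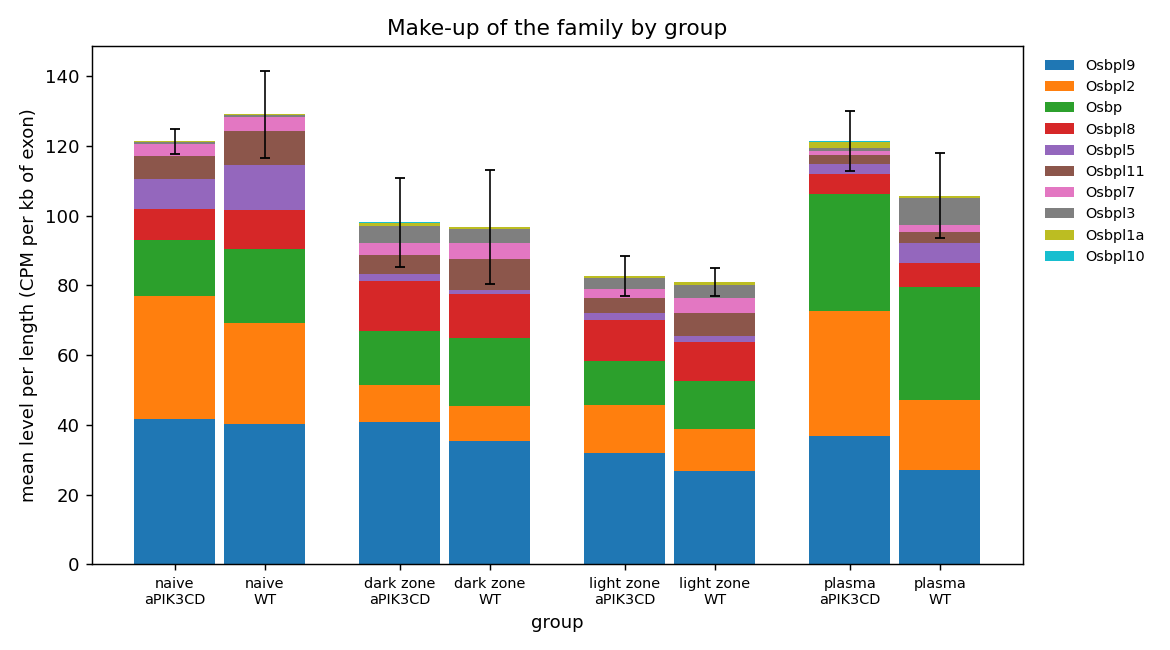
Mean level per length of the 10 members (CPM per kb of exon), stacked by group, with aPIK3CD left of WT in each population; error bars are the SD of the family sum over 4 libraries. The sum was 82.7 ± 5.67 and 81.0 ± 4.10 CPM per kb in aPIK3CD and WT light zone cells, the lowest of the 8 groups, and 121 ± 8.61 and 106 ± 12.1 in aPIK3CD and WT plasma cells.

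The summed level of the family was 98.1 ± 12.8 and 96.7 ± 16.4 CPM per kb in aPIK3CD and WT dark zone cells, and 121 ± 3.47 and 129 ± 12.5 in aPIK3CD and WT naive cells. The plot of the make-up shows that the Osbpl2 and Osbpl5 layers were thin in both germinal centre populations and that the Osbp layer was thickest in plasma cells.

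The start regions of Osbpl3, Osbpl2 and Osbp are shown because these members differed most plainly between populations and have 1 listed RefSeq start each. The lines hold the 250 bases before the start in RefSeq GRCm38.p6, read 5′ to 3′ on the gene's strand, with the letters CCAAT and GGGCGG, on either strand, in capitals. The Osbpl3 region is chr6:50456171-50456420 on the minus strand, that of Osbpl2 chr2:180119056-180119305 on the plus strand, and that of Osbp chr19:11965594-11965843 on the plus strand.
Osbpl3: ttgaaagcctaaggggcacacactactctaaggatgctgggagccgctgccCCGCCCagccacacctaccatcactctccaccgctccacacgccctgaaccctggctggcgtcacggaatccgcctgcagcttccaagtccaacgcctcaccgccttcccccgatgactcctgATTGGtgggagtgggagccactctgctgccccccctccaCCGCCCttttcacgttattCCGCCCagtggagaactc
Osbpl2: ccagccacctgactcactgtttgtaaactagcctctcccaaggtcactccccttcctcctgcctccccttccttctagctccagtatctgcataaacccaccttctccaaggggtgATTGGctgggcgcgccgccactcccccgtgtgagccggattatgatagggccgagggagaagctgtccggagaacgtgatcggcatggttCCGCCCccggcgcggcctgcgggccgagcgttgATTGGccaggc
Osbp: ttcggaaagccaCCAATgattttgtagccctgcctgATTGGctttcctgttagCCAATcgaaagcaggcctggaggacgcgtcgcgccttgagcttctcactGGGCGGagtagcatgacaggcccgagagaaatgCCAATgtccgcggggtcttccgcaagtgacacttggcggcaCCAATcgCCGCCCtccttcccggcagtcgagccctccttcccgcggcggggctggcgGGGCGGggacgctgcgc
RefSeq windows were matched by symbol for 8 of the 10 members, with 11 windows in all. CCAAT occurred in 6 of these 11 windows and in 33.8% of all 32851 windows of the same length, and GGGCGG, the GC box, in 6 of 11 and 32.7%. Osbp held CCAAT at 5 places, as written or in reverse, Osbpl2 at 2 and Osbpl3 at 1. The E-box CACGTG occurred once each upstream of Osbpl5 and Osbpl8 and in 6.02% of all windows. The sterol regulatory element TCACNCCAC (1.05% of all windows), the FOXO letters TGTTTAC (3.17%), the ETS letters CCGGAAG (6.91%), the cAMP response element TGACGTCA (1.55%) and the endoplasmic reticulum stress element (0.113%) were not among the letters of the 11 windows on either strand. The last of these contains CCAAT.

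Osbpl3 (ENSMUSG00000029822, chromosome 6), which in human cells binds the small GTPase R-Ras and VAPA and affects cell adhesion, was low in naive B cells and higher in both germinal centre zones of both genotypes. In dark zone cells it measured 29.2, 63.7, 38.2 and 47.3 CPM in the 4 aPIK3CD libraries, against 9.75, 3.11, 9.93 and 0.688 CPM in aPIK3CD naive libraries. Every dark zone library lay above every naive library. The log2 fold change was 2.93 (SE 0.60, edgeR adjusted p = 0.00179). The naive values rest on 27, 8, 26 and 2 counts, and in both zones of both genotypes Osbpl3 passed the filter on low counts through the germinal centre libraries. It also passed in these 4 comparisons without that filter.

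In WT dark zone cells Osbpl3 measured 32.6, 38.3, 68.1 and 10.4 CPM, against 4.35, 1.90, 1.07 and 6.83 CPM in WT naive libraries. These groups did not overlap either, although the value of 68.1 rests on 2 counts in the shallow replicate 3. The log2 fold change was 3.11 (SE 0.67, edgeR adjusted p = 0.00147), and 2.94 without replicate 3 (edgeR adjusted p = 0.00494). The 10.4 CPM of replicate 4 was the lowest dark zone value.

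Osbpl3 stood at 28.8, 32.02, 17.4 and 34.8 CPM in aPIK3CD light zone cells, a log2 fold change of 2.27 over aPIK3CD naive cells (SE 0.63, edgeR adjusted p = 0.0116). It stood at 33.1, 41.8, 25.2 and 32.2 CPM in WT light zone cells, a log2 fold change of 3.24 over WT naive cells (SE 0.54, edgeR adjusted p = 0.000344). All 8 light zone libraries exceeded the highest naive value of their genotype. Between the zones, light over dark, the log2 fold change was -0.65 in aPIK3CD (SE 0.30, edgeR adjusted p = 0.253) and 0.24 in WT (SE 0.40, edgeR adjusted p = 0.848), neither past the threshold of 0.05.

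Osbpl3 did not pass between genotypes in the 3 populations outside the choice of the family. In naive cells it averaged 5.87 ± 4.69 CPM in aPIK3CD and 3.54 ± 2.60 CPM in WT (SD, n = 4 each), a log2 fold change of 0.74 (SE 0.88) at an edgeR adjusted p near 1. Dark zone cells averaged 44.6 ± 14.7 CPM in aPIK3CD and 37.4 ± 23.8 CPM in WT (0.66, SE 0.39, edgeR adjusted p = 0.743). The libraries of the genotypes overlapped in all 3 populations. In light zone cells the means were 28.3 ± 7.64 CPM in aPIK3CD and 33.0 ± 6.79 CPM in WT (-0.23, SE 0.29, edgeR adjusted p = 0.879). The genotype effect in the light zone minus that in the dark zone was -0.86 on the log2 scale (SE 0.67), with an edgeR adjusted p near 1.

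Plasma cells gave the contrast by which the family was chosen. Osbpl3 measured 7.79, 7.63, 7.49 and 8.51 CPM in the 4 aPIK3CD libraries, on 4 to 5 counts each and 18 in all, against 79.3, 77.9, 74.9 and 46.0 CPM in the 4 WT libraries, on 20 to 44 counts each and 129 in all. The aPIK3CD plasma values lay within the range of aPIK3CD naive cells, and 3 of the 4 WT values lay above every germinal centre library. The log2 fold change of aPIK3CD over WT was -3.14 (SE 0.33), and that of WT plasma over WT naive cells 4.35 (SE 0.50). The library titled aPIK3CD replicate 1, whose genotype field reads WT, had the 7.79 CPM, beside the other aPIK3CD libraries. As this library took part in the choice of the family, its value does not tell which label is right. Plasma cell totals were 652722 to 788999 counts in aPIK3CD and 473149 to 704361 in WT.

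The plasma cell markers Xbp1 and Prdm1 averaged 3989.7 ± 265 and 351 ± 44.7 CPM in aPIK3CD plasma cells, and 3906 ± 294 and 351 ± 21.6 CPM in WT plasma cells. Summed over the 6 genes of the plasma cell list the level was 10669 to 12334 CPM in aPIK3CD and 11241 to 14366 CPM in WT. Summed over 7 monocyte, macrophage and neutrophil markers it was 9.36 to 497 CPM in aPIK3CD and 7.79 to 364 CPM in WT plasma cells, with Itgam, S100a8 and S100a9 at 0 in both. The sum averaged 272 and 174 CPM, and most of it was Lyz2. That gene averaged 262 ± 246 CPM in aPIK3CD and 165 ± 153 CPM in WT plasma cells. The part of these markers in the Osbpl3 values was not tested.

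**Figure D2:**
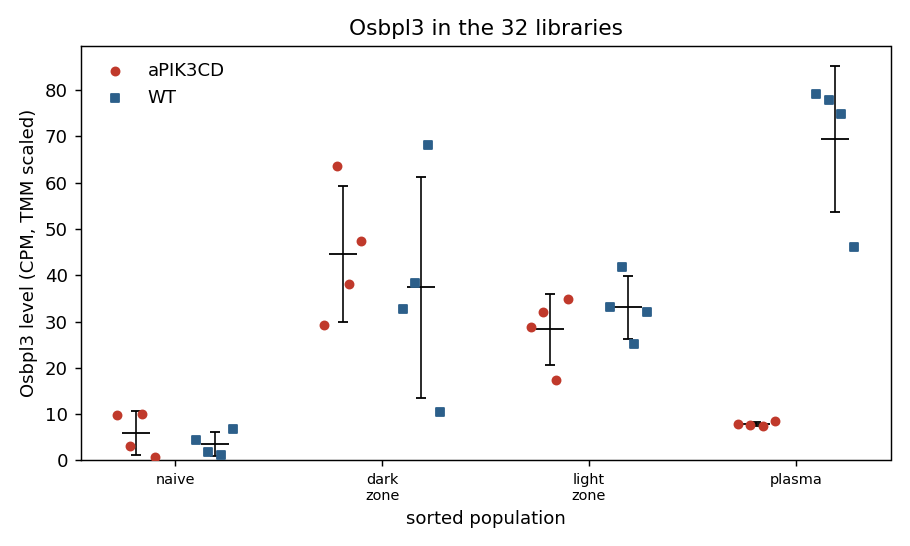
Osbpl3 level (CPM) in each of the 32 libraries by population, aPIK3CD as circles left of WT as squares; the bar is the mean and the whiskers the SD of 4 libraries. The 4 aPIK3CD plasma libraries sit between 7.49 and 8.51 CPM and the 4 WT plasma libraries between 46.0 and 79.3 CPM, while the genotypes overlap in the other populations.

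Ordered by mean, Osbpl3 ran from WT plasma cells through aPIK3CD dark zone, WT dark zone, WT light zone, aPIK3CD light zone, aPIK3CD plasma and aPIK3CD naive cells to WT naive cells. The ranges of neighbours in this order overlapped except between aPIK3CD light zone and aPIK3CD plasma cells. That exception holds the aPIK3CD plasma values by which the family was chosen. The 6 genes whose mean log2 CPM over the 8 groups followed Osbpl3 most closely, of 9919 genes compared, were Tial1 (Pearson r = 0.957), Uxt (0.956), Trp73 (0.953), Ankrd12 (0.949), Cep250 (0.949) and Eloc (0.948). These values describe 8 group means that share libraries and normalization. The means include the plasma values by which Osbpl3 was chosen, so nothing is read from the ranking. Tial1, an RNA-binding protein, averaged 93.2 CPM in aPIK3CD plasma cells and 133 CPM in WT plasma cells, and 73.9 and 68.9 CPM in aPIK3CD and WT naive cells.

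Among the comparisons with naive cells, 4 of 8 members tested passed in dark zone cells and 4 of 8 in light zone cells of aPIK3CD mice, 2 higher and 2 lower each, where 43.6% and 42.6% of all genes tested passed (22.2% and 21.8% higher, 21.4% and 20.8% lower). In WT mice 3 of 8 members passed in the dark zone, 1 higher and 2 lower, and 4 of 8 in the light zone, 1 higher and 3 lower, against 41.4% and 40% of all genes (19.8% and 19.8% higher, 21.6% and 20.2% lower). The share of members that passed was near that of all genes. Osbpl1a and Osbpl10 were not tested, as they did not pass the filter on low counts, and a low gene such as Osbpl3 passed it through the germinal centre libraries. The comparisons within a genotype share their naive libraries.

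Osbpl2 (ENSMUSG00000039050, chromosome 2) fell in both zones. It measured 61.8, 41.6, 47.0 and 25.8 CPM in aPIK3CD dark zone cells and 80.0, 71.0, 31.7 and 45.3 CPM in aPIK3CD light zone cells, against 137, 155, 152 and 145 CPM in aPIK3CD naive cells. No germinal centre library reached the naive range. The log2 fold changes over naive cells were -1.72 in the dark zone (SE 0.23, edgeR adjusted p = 8.11e-05) and -1.37 in the light zone (SE 0.24, edgeR adjusted p = 0.000623).

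In WT mice Osbpl2 measured 27.0, 54.5, 34.1 and 49.9 CPM in the dark zone and 64.9, 52.5, 57.9 and 29.0 CPM in the light zone, against 103, 135, 150.4 and 95.6 CPM in naive cells. Again the ranges were apart. The log2 fold changes over naive cells were -1.43 in the dark zone (SE 0.27, edgeR adjusted p = 0.000489) and -1.22 in the light zone (SE 0.25, edgeR adjusted p = 0.00157). Without the shallow replicate 3 the dark zone value was -1.47 (edgeR adjusted p = 0.00147).

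Osbpl5 (ENSMUSG00000037606, chromosome 7), a member anchored in the endoplasmic reticulum that carries phosphatidylserine to the plasma membrane, fell as well. Its levels were 7.42, 0, 5.45 and 24.0 CPM in aPIK3CD dark zone cells and 12.3, 11.8, 7.47 and 6.39 CPM in aPIK3CD light zone cells, against 28.5, 64.1, 20.6 and 56.1 CPM in aPIK3CD naive cells. The light zone libraries lay below all naive libraries, and 1 dark zone library lay inside the naive range. The log2 fold changes over naive cells were -2.15 in the dark zone (SE 0.71, edgeR adjusted p = 0.0279) and -2.15 in the light zone (SE 0.43, edgeR adjusted p = 0.00165). The dark zone call in aPIK3CD was lost in 4 of the 8 fits that left out 1 library, without dark zone replicates 1 and 3 and naive replicates 2 and 4 (edgeR adjusted p = 0.0754, 0.0792, 0.0687 and 0.0623).

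In WT mice Osbpl5 measured 7.80, 2.94, 0 and 11.7 CPM in the dark zone and 4.99, 13.9, 4.03 and 8.30 CPM in the light zone, against 31.4, 121, 50.3 and 46.6 CPM in naive cells. The 0 stood in the library of 25797 counts. The log2 fold changes over naive cells were -3.02 in the dark zone (SE 0.53, edgeR adjusted p = 0.000275) and -3.01 in the light zone (SE 0.50, edgeR adjusted p = 0.000344). Without that library the dark zone value was -3.06. In both zones of both genotypes Osbpl5 passed the filter on low counts through the naive libraries, where it was high. It also passed in these comparisons without that filter.

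Osbpl8 (ENSMUSG00000020189, chromosome 10), the closest relative of Osbpl5 at the same contacts, went the other way in aPIK3CD cells. It measured 157, 122, 119 and 146 CPM in the dark zone and 112, 116, 103 and 113 CPM in the light zone, against 96.4, 90.5, 72.9 and 66.4 CPM in naive cells. All 8 germinal centre libraries exceeded all 4 naive libraries. The log2 fold changes were 0.76 in the dark zone (SE 0.18, edgeR adjusted p = 0.00414) and 0.45 in the light zone (SE 0.16, edgeR adjusted p = 0.0397). The light zone call was lost in 6 of the 8 fits without 1 library (edgeR adjusted p = 0.0626 to 0.096), without each of the 4 light zone libraries and without naive replicates 3 and 4, and without the filter on low counts (edgeR adjusted p = 0.129).

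In WT mice Osbpl8 averaged 118 ± 14.2 and 106 ± 13.7 CPM in the dark and light zones and 106 ± 13.9 CPM in naive cells (SD, n = 4), log2 fold changes over naive of 0.26 and 0.02 (edgeR adjusted p = 0.289 and 0.952). That Osbpl8 passed in aPIK3CD and not in WT does not show that the genotypes differ: in the test of the genotype effect among the 4 populations it had an edgeR adjusted p of 0.834 and did not pass. Of 9 members in that test 0 passed by edgeR, against 0.0256% of all genes, with 1 member at an unadjusted p under 0.05, Osbpl3, whose plasma values chose the family, so nothing is read from it. In the test between the 2 zones 0 of 9 passed by edgeR, against 0% of all genes, with 0 members at an unadjusted p under 0.05. DESeq2 was not run on these 2 tests.

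Osbpl9 (ENSMUSG00000028559, chromosome 4) measured 181, 173, 207 and 185 CPM in WT light zone cells, against 278, 274, 271 and 303 CPM in WT naive cells. The ranges were apart, and the log2 fold change was -0.58 (SE 0.13, edgeR adjusted p = 0.00249). In aPIK3CD mice the light zone averaged 225 ± 31.5 CPM and naive cells 292 ± 49.4 CPM (SD, n = 4 each), a log2 fold change of -0.37 (SE 0.14) at an edgeR adjusted p of 0.0507. It passed in 6 of 14 alternatives, with adjusted p values of 0.0123 to 0.152 over the 14. Osbp, Osbpl7 and Osbpl11, the last a partner of the Osbpl9 protein, did not pass against naive cells in either zone of either genotype, with log2 fold changes between -0.67 and 0.05. Under some alternatives Osbp did pass as lower in the WT light zone. These were no filter (-0.69, edgeR adjusted p = 0.0274), the single fit (-0.65, edgeR adjusted p = 0.0389), and the fits without WT naive replicate 1 or 2 (edgeR adjusted p = 0.0381 and 0.0174).

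**Figure D3:**
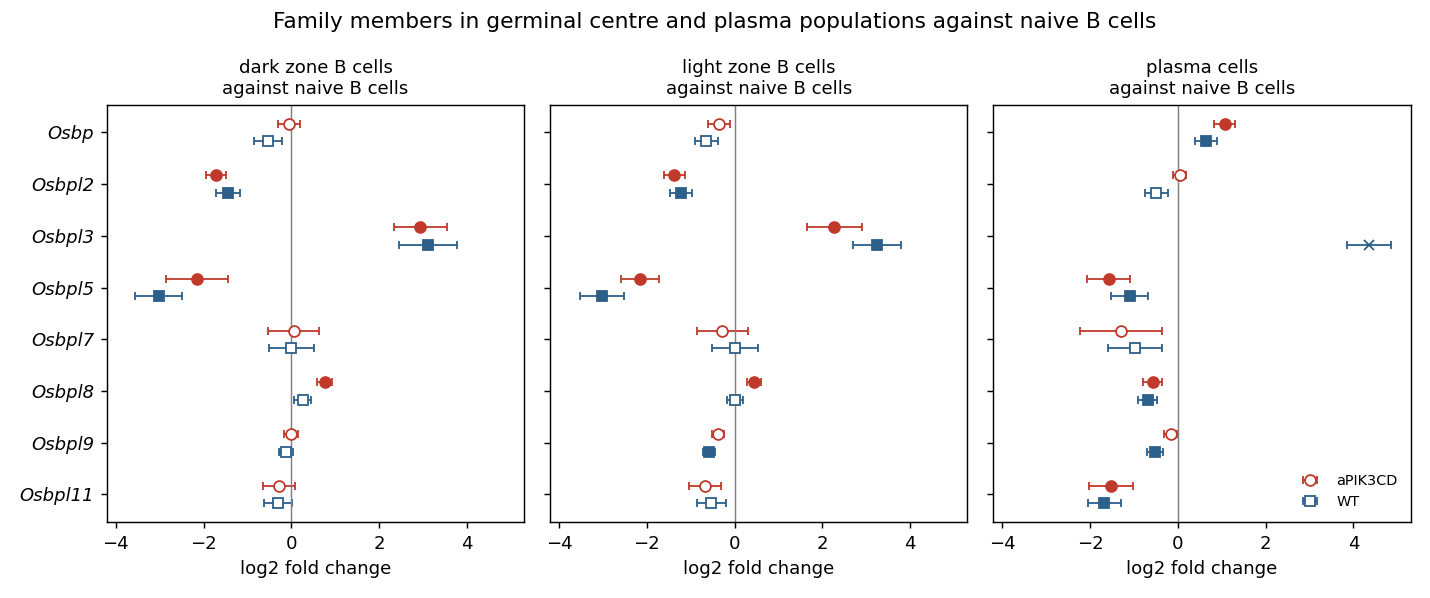
Log2 fold change over naive B cells (x axis) of the members tested (y axis) in dark zone, light zone and plasma cells, aPIK3CD as red circles above WT as blue squares, with the SE; filled symbols passed at an adjusted p under 0.05, and the cross marks Osbpl3 in plasma cells, given without a test. Osbpl3 lies right of 0 and Osbpl2 and Osbpl5 lie left of 0 in both zones of both genotypes, while Osbp lies right of 0 in plasma cells.

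Between light and dark zone 0 of 8 members passed by edgeR in either genotype, against 6.04% of all genes in aPIK3CD and 2.55% in WT. At an unadjusted p under 0.05 there were 2 members in aPIK3CD and 1 in WT, and DESeq2 called 0 in each. Osbpl9 had the smallest p in both, with log2 fold changes of -0.35 (SE 0.15, edgeR adjusted p = 0.184) and -0.42 (SE 0.15, edgeR adjusted p = 0.143).

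In plasma cells against naive cells 4 of 7 members passed in aPIK3CD, 1 higher and 3 lower, against 52.8% of all genes (26.5% higher, 26.2% lower), and 6 of 8 passed in WT, 2 higher and 4 lower, against 49.6% (25.4% higher, 24.2% lower). Osbpl3 is 1 of the 2 that were higher in WT, and its libraries took part in the choice of the family. In aPIK3CD it was low in both populations and did not pass the filter.

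Osbp (ENSMUSG00000024687, chromosome 19) rose in plasma cells. It measured 168, 189, 109 and 138 CPM in aPIK3CD plasma cells, against 79.8, 87.8, 79.0 and 44.7 CPM in aPIK3CD naive cells, and the ranges did not overlap. The log2 fold change was 1.07 (SE 0.24, edgeR adjusted p = 0.00268). In WT it measured 140.4, 166, 119 and 156 CPM in plasma cells, against 71.6, 59.8, 119 and 133 CPM in naive cells, with overlap (0.65, SE 0.25, edgeR adjusted p = 0.0449). The WT call was lost in 6 of 8 fits that left out 1 library, without each of the 4 plasma libraries and without naive replicates 1 and 2 (edgeR adjusted p = 0.072 to 0.16), without the filter (0.0842) and in a single fit of all libraries (0.0557).

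Osbp also rose over both germinal centre zones. Over the dark zone the log2 fold change in plasma cells was 1.11 in aPIK3CD (SE 0.21, edgeR adjusted p = 0.000472) and 1.20 in WT (SE 0.24, edgeR adjusted p = 0.000383). Over the light zone it was 1.42 in aPIK3CD (SE 0.21, edgeR adjusted p = 5.19e-05) and 1.29 in WT (SE 0.19, edgeR adjusted p = 4.35e-05). Its light zone levels were 49.0, 70.3, 62.9 and 44.7 CPM in aPIK3CD and 52.4, 67.1, 53.9 and 71.6 CPM in WT, all below every plasma library. In the WT dark zone the shallow replicate 3 stood at 170 CPM on 5 counts, above every WT plasma library. Without that replicate the log2 fold change of WT plasma over dark zone cells was 1.27 (edgeR adjusted p = 0.000256).

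Osbpl2 returned in plasma cells to levels above the germinal centre. It measured 131, 158, 168 and 143 CPM in aPIK3CD plasma cells, which was 1.76 above the dark zone on the log2 scale (SE 0.24, edgeR adjusted p = 2.32e-05) and 1.41 above the light zone (SE 0.25, edgeR adjusted p = 0.000233). In WT plasma cells Osbpl2 measured 79.3, 57.1, 68.1 and 131 CPM, which was 0.95 above the dark zone (SE 0.32, edgeR adjusted p = 0.0163) and 0.73 above the light zone (SE 0.30, edgeR adjusted p = 0.0463). The call over the WT light zone was lost in 7 of 14 alternatives, among them those without plasma replicates 1 or 4 or light zone replicates 2, 3 or 4 (edgeR adjusted p up to 0.229), and that over the WT dark zone was lost without dark zone replicate 1 (edgeR adjusted p = 0.0886). Against naive cells it did not pass in either genotype, with log2 fold changes of 0.04 in aPIK3CD and -0.49 in WT (edgeR adjusted p = 0.824 and 0.137). Without WT plasma replicate 4, the library with 131 CPM, the WT value was -0.85 (edgeR adjusted p = 0.0146).

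Osbpl11 (ENSMUSG00000022807, chromosome 16) and Osbpl8 were lower in plasma cells. Osbpl11 measured 4.67, 3.81, 18.7 and 20.4 CPM in aPIK3CD plasma cells, against 22.7, 33.8, 50.4 and 31.3 CPM in aPIK3CD naive cells, a log2 fold change of -1.52 (SE 0.51, edgeR adjusted p = 0.0253). In the WT libraries it measured 11.3, 20.8, 15.3 and 13.8 CPM in plasma cells, against 65.3, 59.5, 36.7 and 38.6 CPM in naive cells (-1.67, SE 0.37, edgeR adjusted p = 0.00165). The ranges were apart in both genotypes, on 2 to 12 counts a library in plasma cells. In aPIK3CD Osbpl11 passed the filter on low counts through the naive libraries, and it also passed there without that filter. Its calls over the dark and light zones were less steady. In aPIK3CD it stood at -1.25 over the dark zone (SE 0.52, edgeR adjusted p = 0.0492, lost in 7 of 14 alternatives) and at -0.86 over the light zone, which did not pass. In WT it stood at -1.34 over the dark zone (SE 0.38, edgeR adjusted p = 0.00609, lost without plasma replicate 1 at 0.0614) and at -1.13 over the light zone (SE 0.42, edgeR adjusted p = 0.0313, lost in 5 of 14 alternatives). The aPIK3CD call against naive cells was lost in 3 of 8 fits, without plasma replicate 1 or 2 or naive replicate 3 (edgeR adjusted p = 0.0744, 0.0674 and 0.0663).

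Osbpl8 measured 63.9, 57.2, 58.0 and 37.5 CPM in aPIK3CD plasma cells, below every dark and light zone library of that genotype. Its log2 fold change was -1.33 over the dark zone (SE 0.20, edgeR adjusted p = 6.44e-05) and -1.03 over the light zone (SE 0.19, edgeR adjusted p = 0.000368). In WT plasma cells it measured 56.6, 57.1, 56.2 and 85.1 CPM, with -0.94 over the dark zone (SE 0.22, edgeR adjusted p = 0.0014) and -0.69 over the light zone (SE 0.21, edgeR adjusted p = 0.011). Against naive cells it was at -0.57 in aPIK3CD (SE 0.22, edgeR adjusted p = 0.0449) and -0.68 in WT (SE 0.22, edgeR adjusted p = 0.0168). The aPIK3CD call against naive cells was lost in 8 of 14 alternatives (edgeR or DESeq2 adjusted p up to 0.129), among them those without plasma replicates 2, 3 or 4 or naive replicates 1 or 2, and with DESeq2 size factors.

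Osbpl5 in plasma cells lay between the germinal centre and naive levels. It measured 17.1, 22.9, 9.36 and 6.81 CPM in aPIK3CD plasma cells and 34.0, 31.2, 20.4 and 29.9 CPM in WT plasma cells. Against naive cells its log2 fold change was -1.58 in aPIK3CD (SE 0.48, edgeR adjusted p = 0.0163) and -1.09 in WT (SE 0.43, edgeR adjusted p = 0.0448). The aPIK3CD call was lost without plasma replicate 4 (edgeR adjusted p = 0.0511). In aPIK3CD Osbpl5 passed the filter on low counts through the naive libraries, and it also passed without that filter. The WT call was lost in 7 of 14 alternatives, among them those without each of the 4 plasma libraries or without naive replicate 2, whose 121 CPM stood above the rest (-0.53, edgeR adjusted p = 0.207).

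In WT it was higher in plasma cells than in the dark zone by 1.92 on the log2 scale (SE 0.46, edgeR adjusted p = 0.00158) and than in the light zone by 1.92 (SE 0.46, edgeR adjusted p = 0.00253). Osbpl5 passed the filter on low counts there through the WT plasma libraries, on 12 to 15 counts each. It also passed in both WT comparisons without that filter. In aPIK3CD it did not pass against the light zone (0.58, SE 0.46, edgeR adjusted p = 0.298). Against the aPIK3CD dark zone it was not tested, as it did not pass the filter. In the test among the 4 populations Osbpl5 had an edgeR adjusted p of 0.938.

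Osbpl9 was lower in WT plasma than in WT naive cells, at 215, 117, 218 and 209 CPM in plasma cells (log2 fold change -0.52, SE 0.19, edgeR adjusted p = 0.0311; lost without naive replicate 3 or 4, edgeR adjusted p = 0.0504 and 0.0694). In aPIK3CD it measured 245, 263, 290.1 and 233 CPM in plasma cells (-0.16, SE 0.14, edgeR adjusted p = 0.354). Osbpl7 (ENSMUSG00000038534, chromosome 11) averaged 7.97 ± 9.91 CPM in aPIK3CD and 12.1 ± 2.92 CPM in WT plasma cells, at 0 in 2 aPIK3CD libraries, and did not pass against naive cells in either genotype (edgeR adjusted p = 0.271 and 0.197). Over all plasma comparisons, 5 of 7 members passed against the dark zone and 4 of 8 against the light zone in aPIK3CD, where 61.6% and 61.2% of all genes did. In WT 6 of 8 passed against each zone, where 55.1% and 56.4% of all genes did. Each of these counts, and that of WT plasma against naive cells, includes Osbpl3 through the plasma values that chose the family.

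**Figure D4:**
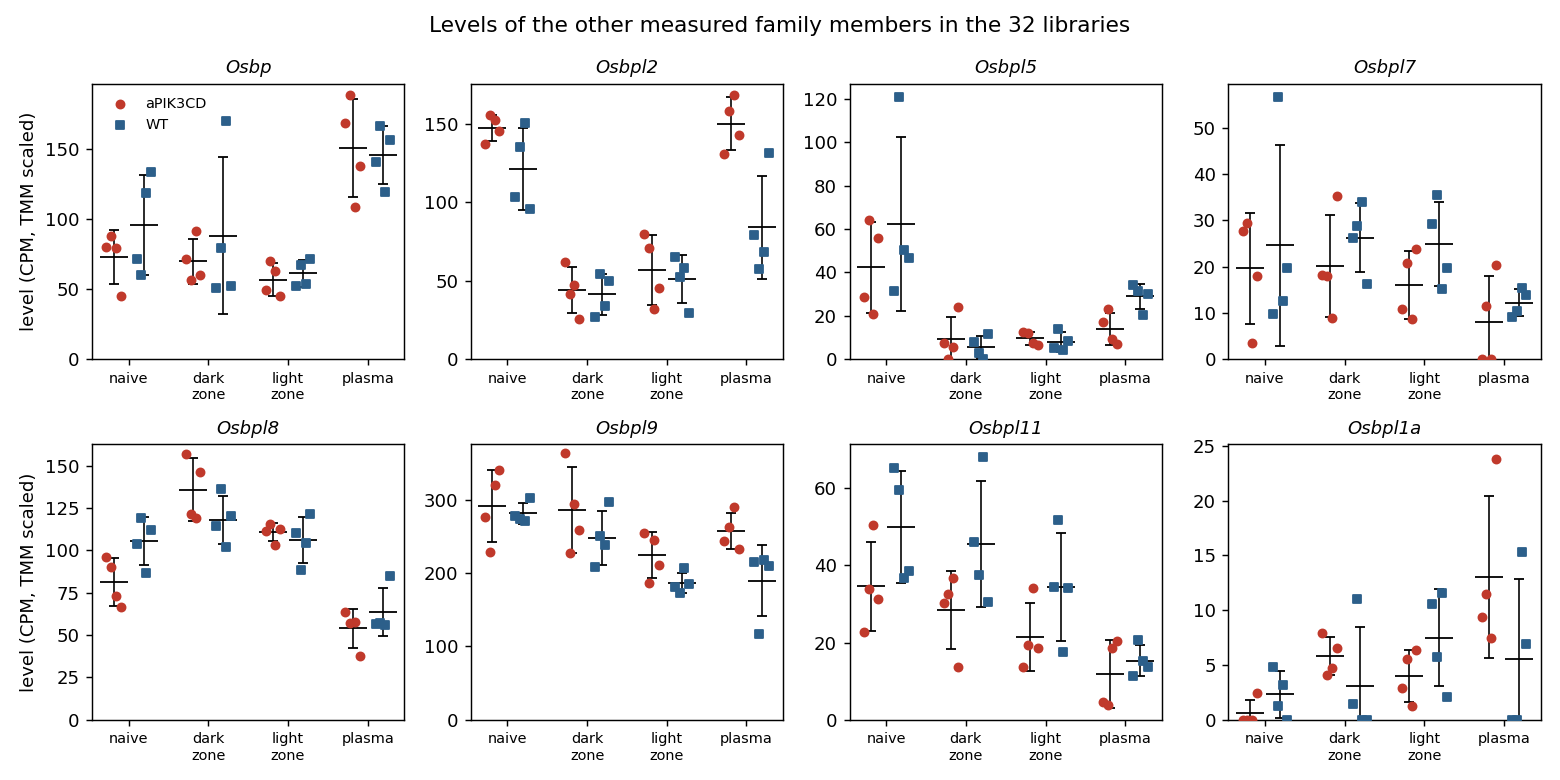
Level (CPM) of 8 further members in each library by population, aPIK3CD as red circles left of WT as blue squares; the bar is the mean and the whiskers the SD of 4 libraries, and each panel has its own axis from 0. By mean, Osbpl2 dips in both zones, Osbp is highest in plasma cells and Osbpl8 lowest there.

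Osbpl1a (ENSMUSG00000044252, chromosome 18), a sterol sensor of late endosomes, and Osbpl10 (ENSMUSG00000040875, chromosome 9) were near the limit of these libraries. Osbpl1a had 204 counts in 24 of 32 libraries. Its levels were 9.35, 11.4, 7.49 and 23.8 CPM in aPIK3CD plasma cells, and 0, 0, 15.3 and 6.90 CPM in WT plasma cells, on at most 14 counts. These ranges overlapped. In aPIK3CD naive cells Osbpl1a measured 0, 0, 0 and 2.41 CPM, below every aPIK3CD plasma library. Plasma against naive cells was not tested for it in aPIK3CD, as it did not pass the filter on low counts. It passed there without that filter, without immunoglobulin and T cell receptor genes, and in the single fit of all 32 libraries. In the single fit it also passed in aPIK3CD dark zone against naive cells. Osbpl10 had 15 counts in 7 libraries, 8 of them in aPIK3CD dark zone cells. It was at 0 in WT plasma cells, where 0 of 2261706 counts allow up to 1.33 CPM before scaling, and at 0 in WT light zone cells, where 0 of 5704582 allow up to 0.526 CPM. These limits are 3 counts over the group and cover counting error only.

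Between genotypes 0 of 8 members passed by edgeR in naive, dark zone and light zone cells each, where 0%, 0.021% and 0% of all genes did. DESeq2 called 0 members in each of these populations, and 0 had an unadjusted p under 0.05. The log2 fold changes of aPIK3CD over WT lay between -0.59 and 0.74 in naive cells, between -0.47 and 0.66 in dark zone cells and between -0.68 and 0.27 in light zone cells. Osbpl11 had negative values in all 3, -0.54 (SE 0.31), -0.47 (SE 0.35) and -0.68 (SE 0.37).

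In plasma cells, the contrast that chose the family, 6 members were above the filter on low counts and 1 of them, Osbpl3, lay past the threshold by that choice, where 3.2% of all genes did. Nothing is read from this count, and all values are given without a test. Osbpl2 had the values printed above, higher in aPIK3CD than in WT by 0.81 on the log2 scale (SE 0.23), with the lowest aPIK3CD library at 130.8 CPM and the highest WT library at 131.2 CPM. Osbpl9 was higher by 0.41 (SE 0.18), and all 4 aPIK3CD libraries, at 233 to 290.1 CPM, lay above all 4 WT libraries, at 117 to 218 CPM. Osbpl5 stood at -1.05 (SE 0.40) with overlap, Osbpl8 at -0.26 (SE 0.26) and Osbp at 0.03 (SE 0.19). The median over the 6 members was -0.12, and over all genes tested it was -0.0028.

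**Figure D5:**
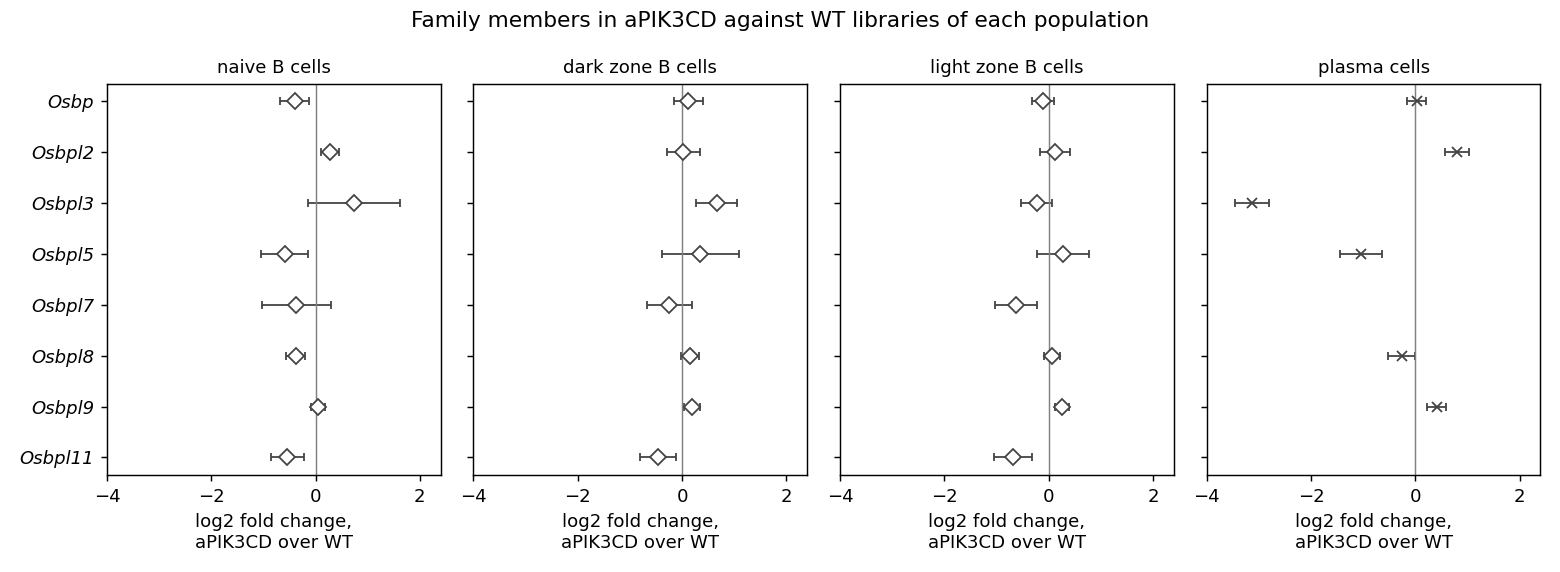
Log2 fold change of aPIK3CD over WT (x axis) of the members tested (y axis) in naive, dark zone, light zone and plasma cells, with the SE; open diamonds did not pass, and crosses in plasma cells are values of the contrast that chose the family, given without a test. Osbpl3 stands at -3.14 in plasma cells, and the values in the other 3 populations lie between -0.68 and 0.74.

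The partners of the family were described through 5 lists. The first held 5 genes of the VAP family, to which the anchors VAPA and VAPB belong. Of these genes, 2 rose and the other 3 did not pass in plasma cells against naive cells in each genotype. Of all genes 26.5% rose in aPIK3CD and 25.4% in WT. The 2 were Vapa (log2 fold change 0.90 in aPIK3CD and 0.46 in WT, edgeR adjusted p = 8.4e-05 and 0.0407) and Mospd1 (1.93 and 1.20, edgeR adjusted p = 2.31e-05 and 0.00593). The median of the 5 genes was 0.19 in each genotype, against -0.08 and -0.09 over all genes. In the light zone against naive cells Mospd1 fell, with -1.29 in aPIK3CD and -2.19 in WT (edgeR adjusted p = 0.0276 and 0.00296). There 2 of the 5 genes fell and none rose in each genotype. Of all genes 20.8% fell in aPIK3CD and 20.2% in WT.

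Of 11 tested genes of PI4P kinases, their scaffold and the PI4P phosphatase, 1 fell and the other 10 did not pass in aPIK3CD dark zone cells against naive cells, and 1 rose and 3 fell in WT dark zone cells. Of all genes 22.2% rose and 21.4% fell in the aPIK3CD dark zone, and 19.8% rose and 21.6% fell in that of WT. Sacm1l, the phosphatase that removes PI4P in the endoplasmic reticulum, fell in the dark zone, with log2 fold changes of -1.23 in aPIK3CD and -1.97 in WT (edgeR adjusted p = 0.00333 and 0.000903). Pi4kb, a PI4P kinase of the Golgi, fell in plasma cells, with -1.42 in aPIK3CD and -1.94 in WT against naive cells (edgeR adjusted p = 0.00152 and 0.00225). There 2 of the 11 genes fell in aPIK3CD and 3 in WT, where 26.2% and 24.2% of all genes fell. None rose, where 26.5% and 25.4% of all genes did.

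Of the oxysterol list, 7 of 14 tested genes fell in the aPIK3CD dark zone against naive cells and 7 of 14 in the WT dark zone, where 21.4% and 21.6% of all genes fell. In the same comparisons 0 of the 14 rose in aPIK3CD and 2 rose in WT, where 22.2% and 19.8% of all genes rose. Gpr183, the oxysterol receptor, fell, with log2 fold changes of -3.32 in aPIK3CD and -2.48 in WT (edgeR adjusted p = 1.04e-05 and 2.23e-07). The sterol exporter gene Abca1 fell as well (-1.89 and -2.41, edgeR adjusted p = 0.000303 and 4.02e-06), and Soat1, which esterifies cholesterol, fell too (-1.62 and -1.46, edgeR adjusted p = 0.000327 and 7.4e-05). The list's median was -0.75 in aPIK3CD and -0.66 in WT, against -0.01 and -0.06 over all genes.

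Among 30 tested lipid transfer proteins of membrane contacts, 4 rose and 5 fell in the aPIK3CD dark zone against naive cells, and 4 rose and 7 fell in WT, beside the same shares of all genes as for the PI4P list. Pitpnc1, a phosphatidylinositol transfer protein, rose by 2.96 in aPIK3CD and by 3.13 in WT on the log2 scale (edgeR adjusted p = 5.34e-06 and 6.94e-07), and Stard4, a soluble sterol carrier, by 1.64 and 2.05 (edgeR adjusted p = 0.000407 and 8.98e-05). Esyt1, a tether between the endoplasmic reticulum and the plasma membrane, fell (-2.16 and -2.06, edgeR adjusted p = 1.32e-06 and 6.7e-06). Npc2, the lysosomal cholesterol carrier, rose in plasma cells against naive cells by 2.09 and 2.05 (edgeR adjusted p = 2.4e-08 and 4e-08). There 6 of the 30 genes rose and 5 fell in aPIK3CD, and 5 rose and 4 fell in WT. Of all genes 26.5% rose and 26.2% fell in aPIK3CD, and 25.4% rose and 24.2% fell in WT.

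Among 8 tested R-Ras family and integrin genes, 5 rose and 2 fell in aPIK3CD plasma cells against naive cells, and 2 rose and 2 fell in WT. Of all genes 26.5% rose and 26.2% fell in aPIK3CD, and 25.4% rose and 24.2% fell in WT. Rap1a, a small GTPase of integrin activation, rose by 2.16 and 2.12 (edgeR adjusted p = 5.58e-08 and 1.23e-07), and the integrin gene Itgal by 1.49 and 1.95 (edgeR adjusted p = 1.65e-06 and 5.12e-08). Rras2 fell (-1.88 and -0.95, edgeR adjusted p = 1.39e-05 and 0.00192).

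Between genotypes 3 genes of these 5 lists lay past the threshold, all of them in plasma cells and lower in aPIK3CD. They were 1 of 26 lipid transfer, 1 of 10 PI4P and 1 of 12 oxysterol genes, where 3.2% of all genes did. This contrast chose the family, and the lists were chosen with earlier results known, so these values are a description without a test. No alternative was run on these 3 genes. Of all genes 249 lay past the threshold there, against 77 with a replicate block and 147 in the single fit. Pitpnc1 averaged 42.2 ± 3.90 CPM in aPIK3CD and 84.1 ± 19.97 CPM in WT (SD, n = 4 each), a log2 fold change of -1.01 (SE 0.24). Fam126b, of the scaffold of a plasma membrane PI4P kinase, averaged 23.9 ± 7.76 CPM in aPIK3CD and 56.4 ± 10.7 CPM in WT (-1.27, SE 0.31). Abca1 averaged 87.6 ± 16.1 CPM in aPIK3CD and 148 ± 30.2 CPM in WT (-0.78, SE 0.20). Pik3cd, the gene of the activated kinase, averaged 77.6 ± 19.5 CPM in aPIK3CD and 122 ± 11.2 CPM in WT plasma cells, and its RNA level does not check the genotype, since activation need not change it.

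Across the 8 group means the members formed few close pairs. Osbpl7 and Osbpl11 had the highest Pearson r of log2 CPM (0.88), followed by Osbpl7 and Osbpl8 (0.82) and Osbpl2 and Osbpl5 (0.81), while Osbp and Osbpl8 were most opposed (-0.83), then Osbpl2 and Osbpl3 (-0.78). These values describe 8 points that share libraries and depth differences between populations. Those of Osbpl3 include the plasma values that chose the family.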

How the data were processed

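RNA of 500 sorted cells per library was amplified with SMART-Seq v4, per the labels' protocols. The deposited values are whole-number counts per gene made by the authors with STAR 2.4.2a, HTSeq and Picard, per the submitters' processing notes, which give no order or settings; their genome build was not given in the sources used here. Symbols came from an annotation table, which left 3433 of 53465 gene IDs unnamed. Each comparison of 2 groups was fitted alone in edgeR 4.0.16 (R 4.3.3) with the quasi-likelihood test, TMM scaling and filterByExpr (minimum count 10, minimum total 15), with Benjamini-Hochberg adjustment over all genes tested. A gene passed at an adjusted p under 0.05. Each SE was obtained from the fold change and its F statistic. Tests of a difference between genotype effects came from a single fit of all 32 libraries. Alternatives were DESeq2 1.42.0, its size factors, no filter, no immunoglobulin and T cell receptor genes, a replicate block, a single fit, replicate 1 of aPIK3CD counted as WT, and each library left out. Likeness was Pearson r of log2(CPM + 1) group means for genes with at least 10 CPM in their highest group. From each partner list, up to 4 genes with the smallest p per comparison could be named. The fits were tried on simulated plasma cell counts with the same spread for all genes and changes only in genes at higher counts. That trial does not cover members at few counts or the shallow dark zone library. The members and lists were chosen with earlier results of these data known. Libraries were fitted without a replicate block. Same-numbered libraries of a genotype share a name stem in the labels, which do not say that they came from the same mouse, and no comparison had all 4 same-number correlations above 0.1.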

Additional observations from a re-analysis of the deposited data

Results flagged for a closer look

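Of 67 groups of 4 libraries checked, 3 held a library whose gap to its nearest neighbour was large for the range of the group, where chance gives about 1 in 20 groups. All 3 were WT plasma cells. Osbpl3 measured 46.0 CPM in replicate 4, on 20 counts, and 74.9 to 79.3 CPM in the other 3 libraries. Osbpl8 measured 85.1 CPM in replicate 4, on 37 counts, and 56.2 to 57.1 CPM in the others. Osbpl9 measured 117 CPM in replicate 2, on 45 counts, and 209 to 218 CPM in the others. Replicate 4 also held the highest Osbpl2 level of WT plasma cells, 131 CPM.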

How the results depend on the processing

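Of 47 calls of members, 32 passed under every alternative run, and of 658 alternatives to these calls 595 passed. No call changed sign. Osbpl1a passed only under some alternatives, against naive cells in aPIK3CD, and is not among the 47. The 47 include Osbpl3 between plasma cell genotypes and in the other plasma comparisons where it was tested. Its plasma values chose the family, so nothing is read from the steadiness of those calls. Counts of members past the threshold in plasma cells between genotypes are no test, since that contrast chose the family: 1 as reported, 2 without the filter, 2 without immunoglobulin and T cell receptor genes, 0 by edgeR with aPIK3CD replicate 1 counted as WT, and 1 to 2 with 1 library left out. Counting that replicate as WT left 2 of all genes past the threshold there, against 249. The fit with a replicate block called 1 member, Osbpl9, between light and dark zone in aPIK3CD, where 0 passed without it (-0.34, edgeR adjusted p = 0.0424). Same-numbered libraries of a genotype share a name stem and a letter in the labels, which do not say whether these mark a mouse; in this comparison all 4 correlated best with their own (r 0.0517 to 0.244). With the block Osbpl9 also passed in the aPIK3CD light zone against naive cells (-0.36, edgeR adjusted p = 0.0249). It did not call Osbpl11 in aPIK3CD plasma against dark zone cells, Osbpl5 in WT plasma against naive cells and Osbpl2 in WT plasma against light zone cells (edgeR adjusted p = 0.0828, 0.0582 and 0.0868), and it changed no other call. Without the filter 1 member, Osbpl3, passed in the test of the genotype effect among the 4 populations, where 0 passed with it; that test holds the plasma values by which Osbpl3 was chosen, so nothing is read from it. For the tests of genotype effects between populations, DESeq2's Wald test was not run. DESeq2 gave no adjusted p for Osbpl3 between plasma cell genotypes. DESeq2 size factors moved the median of all genes by -0.17 in WT dark zone against naive cells and by 0.15 in WT plasma against dark zone cells. The cause of these changes was not tested. Members at few counts, such as Osbpl10, and all values of the library with 25797 counts are limited by depth.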
